A study of Mus musculus with 6 samples.

Results

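Krt7, Krt8, Krt18, Krt19, Cldn4, Sfn, Lgals3 and Msln are keratins and surface, junction and signalling genes of simple epithelia that also mark a transitional state of injured alveolar epithelium. These 8 genes were selected by name from the 56941 genes of a raw count table. The selection was made with their hyperoxia against room air values known, so for that contrast their values are a description and carry no weight as a test. The table holds 6 RNA-seq libraries of total RNA from lung cells of mouse pups on postnatal day 7, taken with magnetic beads against the endothelial surface protein CD31. In 3 libraries the pups had breathed room air (21% oxygen), and in 3 they had breathed hyperoxia (75% oxygen), from postnatal day 0 to day 7. No genetic change or other agent is named for either group. The labels name no strain, sex or number of pups per library. Nothing says that the libraries of a group came from separate animals. Every p-value sets the group difference against the spread between libraries, and that spread may be technical.

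Libraries held 39379793 to 42343192 counts, with 19471 to 23989 genes detected, and no pair within a group agreed within sampling noise. Levels are CPM, which is counts scaled to a common library size, after TMM scaling, and a gene was called where its edgeR adjusted p was below 0.05. The endothelial label was met by high levels of its markers, with Pecam1, the gene of CD31, at 2782.6 ± 450 in room air and 2340.5 ± 369 CPM in hyperoxia (SD, n = 3). The 10 endothelial markers summed to 12299 to 17084 in room air and 10063 to 13939 CPM in hyperoxia. Epithelial RNA was in every library as well, and in room air the 10 alveolar type 2 markers summed to 12891 to 20092 CPM, a range as high as the endothelial one. Sftpc, a surfactant protein gene, made up most of that sum, with 9774.8, 7650.4 and 12969.8 CPM in room air replicates 1, 2 and 3. These sums therefore do not compare numbers of cells. The summed level of 14 pan-epithelial markers, genes shared by most epithelial cells, was 466 to 672 in room air and 732 to 1025 CPM in hyperoxia. The 8 genes described here are known mainly from epithelial cells, and these libraries do not show which cells made their transcripts. In bulk RNA, a change in the number of cells of a type and a change in RNA per cell cannot be told apart.

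Keratins form the intermediate filaments of epithelial cells. Each filament pairs a type II keratin, such as the products of Krt7 and Krt8, with a type I keratin, such as those of Krt18 and Krt19. Simple, single-layered epithelia such as the alveolar lining carry these 4. In the injured lung, alveolar type 2 cells, which make surfactant, can replace the thin type 1 cells that exchange gas, and they pass through an intermediate state with high Krt8. Cldn4, Sfn, Lgals3 and Krt19 are among the genes used to mark that state, together with targets of p53 and TGF-beta signalling. Krt7, Krt8, Krt18, Krt19 and Lgals3 are also expressed outside injury, in several normal epithelia, and Lgals3 in macrophages.

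RefSeq promoter windows of build GRCm38.p6, from 250 bases before to 50 after the gene start, were at hand for 6 of the 8 genes, without Krt19 and Msln. The deposited counts use another build, GRCm39. The windows are those of Krt8 and Krt18, the filament pair, and of Cldn4 and Sfn, which had the largest and the smallest fold change of the 8. Capitals mark motif matches on either strand: TATAAA in Krt8, TGANTCA (AP-1) and GGGCGG (GC box, here on the reverse strand as CCGCCC) in Cldn4, and AACNGGTT (grainyhead-like) in Sfn.
Krt8, chr15:102004293-102004592, minus strand: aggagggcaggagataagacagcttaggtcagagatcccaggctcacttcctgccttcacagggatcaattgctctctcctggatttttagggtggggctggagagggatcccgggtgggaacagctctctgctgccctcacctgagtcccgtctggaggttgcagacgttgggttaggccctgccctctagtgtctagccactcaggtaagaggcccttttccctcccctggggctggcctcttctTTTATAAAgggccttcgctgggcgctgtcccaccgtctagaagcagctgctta
Krt18, chr15:102027966-102028265, plus strand: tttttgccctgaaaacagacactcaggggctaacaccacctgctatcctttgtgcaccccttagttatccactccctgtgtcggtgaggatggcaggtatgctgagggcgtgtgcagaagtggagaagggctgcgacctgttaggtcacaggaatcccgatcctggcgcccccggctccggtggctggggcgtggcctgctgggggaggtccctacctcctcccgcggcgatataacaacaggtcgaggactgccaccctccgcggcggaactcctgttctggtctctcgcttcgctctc
Cldn4, chr5:134946885-134947184, minus strand: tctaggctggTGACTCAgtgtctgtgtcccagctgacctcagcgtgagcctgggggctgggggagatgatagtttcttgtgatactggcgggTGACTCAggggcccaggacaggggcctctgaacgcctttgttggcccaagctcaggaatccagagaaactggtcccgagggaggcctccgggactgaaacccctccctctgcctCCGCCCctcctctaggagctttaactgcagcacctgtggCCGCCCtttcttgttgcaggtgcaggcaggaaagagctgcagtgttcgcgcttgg
Sfn, chr4:133602119-133602418, minus strand: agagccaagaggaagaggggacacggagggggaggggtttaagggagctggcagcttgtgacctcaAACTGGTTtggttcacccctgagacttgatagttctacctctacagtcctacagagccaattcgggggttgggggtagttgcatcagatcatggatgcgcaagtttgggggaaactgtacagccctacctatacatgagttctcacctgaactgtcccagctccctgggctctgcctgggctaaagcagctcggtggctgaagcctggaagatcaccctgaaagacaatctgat

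Of all 32851 promoter windows of 300 bases in that table, 13.6% held TATAAA, 35.7% GGGCGG, 7.81% TGANTCA and 2.09% AACNGGTT. TATAAA was in the window of Krt8 alone among the 6, where matches on both strands overlap at the start site. Its partner Krt18, in the opposite orientation on the same chromosome, held none of the motifs searched. The Cldn4 window held TGANTCA at -240 and at -158, counted from the start, and GC boxes at -44 and -5. Each TGANTCA site matches on both strands, because the pattern with its free base N is its own reverse complement. The Sfn window held AACNGGTT at -184. GC boxes were in 3 of the 6 windows, those of Cldn4, Lgals3 and Krt7. GGAATG (TEAD), in 14.7% of all windows, and the p53 half-site, in 8.36%, were in none of the 6. The share of G and C bases ran from 54% in Sfn to 67% in Lgals3, against a median of 52.7% over all windows. CpG pairs numbered 17 in the Krt18 window and 21 in that of Krt7, but 6 in that of Krt8. None of the 6 motifs searched was in all 6 windows. A match is a run of letters, and no binding was measured.

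The 8 genes were all higher in hyperoxia, and in each the lowest hyperoxia library lay above the highest room air library. Over the 17072 genes tested, 16.5% had hyperoxia libraries wholly above room air, 6.77% were called higher, 4.41% were called lower and 11.2% were called in either direction. All 8 passed the filter on low counts and all 8 were called higher, which follows the selection and is not read further. Their median log2 fold change was 1.51, against -0.009 over all genes tested. Their lowest raw count was 280, for Cldn4 in room air, and their highest 18734, for Krt7 in hyperoxia.

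**Figure D1:**
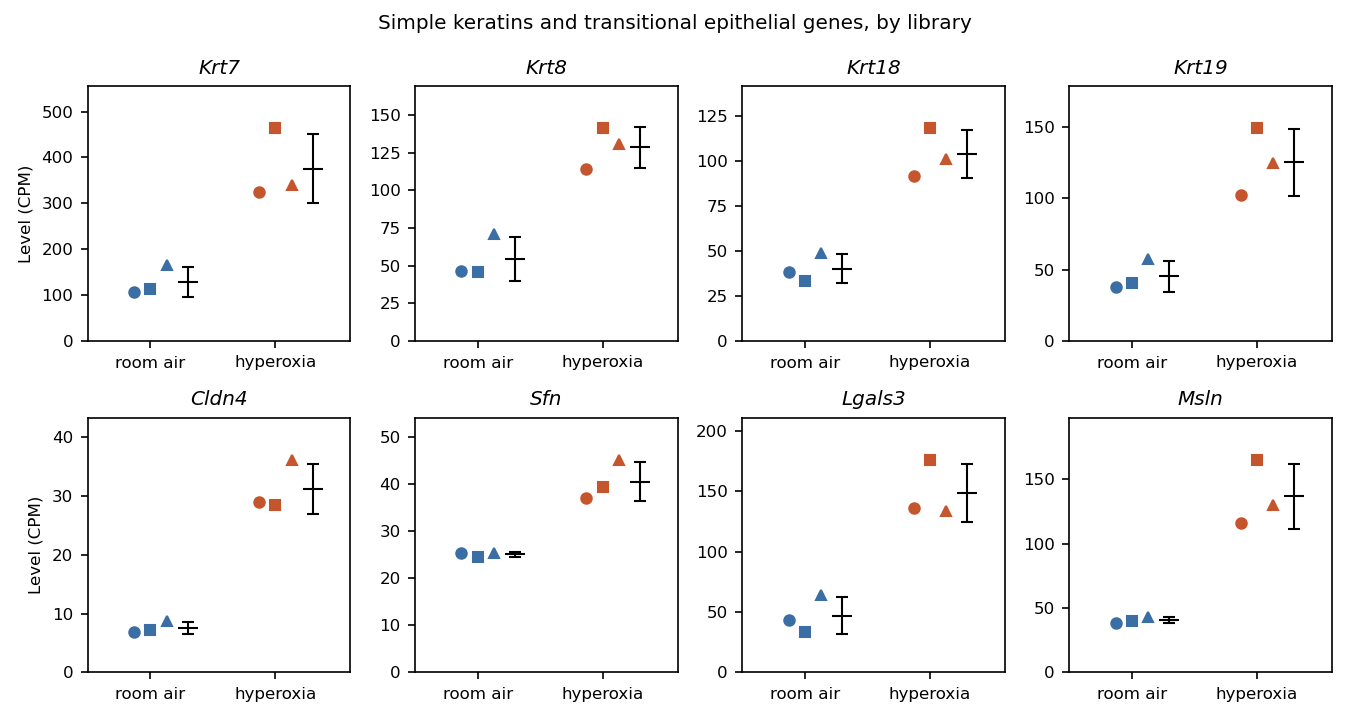
Level of each of the 8 genes in CPM on a linear axis from 0, by library. Circles, squares and triangles are replicates 1, 2 and 3 of room air (blue) and hyperoxia (orange), and black bars are the mean ± SD (n = 3). In every panel the hyperoxia points lie above the room air points, and room air replicate 3 is the highest of its group in 7 of the 8.

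Of the type II keratins, Krt7 (ENSMUSG00000023039) is found in many simple and glandular epithelia. It stood at 106, 114 and 166 CPM in room air replicates 1, 2 and 3 and at 325, 463 and 339 CPM in hyperoxia replicates 1, 2 and 3. The lowest hyperoxia library thus lay well above the highest room air library, and hyperoxia replicate 2 stood apart as the highest. The means were 129 ± 33 and 376 ± 76 CPM (SD, n = 3), a log2 fold change of 1.55 with an SE of 0.195, or 2.92-fold.

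Krt8 (ENSMUSG00000049382), the type II keratin most used to mark the transitional state, had 46.2, 45.6 and 71.2 in room air and 114, 141 and 131 CPM in hyperoxia. Room air replicate 3 was the highest of its group, and the hyperoxia libraries were closer together than for Krt7. The means of 54.3 ± 14.6 and 129 ± 13.8 CPM differed 2.37-fold (log2 1.24, SE 0.17). Exons of Krt8 overlap a gene on the other strand over 5.16% of their bases in the GENCODE M21 annotation, and those of Krt7 over 1.09%, while those of the other 6 overlap none. Since the strand setting of the counting is not given in the sources used here, reads in those bases are uncertain. A pseudogene, Krt8-ps, held 1, 5 and 4 counts in room air and 3, 9 and 20 in hyperoxia, few beside those of Krt8.

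Krt18 (ENSMUSG00000023043), the usual type I partner of Krt8, had 38.3, 33.2 and 49.1 in room air and 91.7, 118 and 101 CPM in hyperoxia. The means were 40.2 ± 8.12 and 104 ± 13.5 CPM, or 2.58-fold higher in hyperoxia (log2 1.37, SE 0.155). Krt19 (ENSMUSG00000020911) encodes a type I keratin without the usual tail domain. It had 38, 40.3 and 57.3 in room air and 102, 149 and 125 CPM in hyperoxia. Its means of 45.2 ± 10.5 and 125 ± 23.3 CPM differed 2.77-fold (log2 1.47, SE 0.18). Both type I genes were highest in room air replicate 3 and in hyperoxia replicate 2 of their groups, as was Krt8.

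Because filaments need both keratin types, the sum of the type I genes Krt18 and Krt19 was set against that of the type II genes Krt7 and Krt8 in each library, as counts per kilobase of exon. This ratio was 1.22, 1.14 and 1.09 in room air and 1.14, 1.18 and 1.2 in hyperoxia. The groups overlapped, with means of 1.15 ± 0.0684 and 1.17 ± 0.0291 (SD, n = 3), and on raw counts with means of 0.471 ± 0.0282 and 0.455 ± 0.0226. An exact permutation test of 3 against 3 cannot go below 0.1, so nothing is read from one here, and the ratios are a description. For Krt18 over Krt8 alone, the count ratio was 0.828, 0.728 and 0.69 in room air and 0.805, 0.839 and 0.77 in hyperoxia, which also overlap.

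Cldn4 (ENSMUSG00000047501) encodes claudin-4, a sealing protein of tight junctions. Its level was 6.87, 7.14 and 8.69 in room air and 29, 28.4 and 36.1 CPM in hyperoxia. Libraries within a group were close, and each hyperoxia library was above all room air libraries. The means were 7.57 ± 0.98 and 31.2 ± 4.31 CPM (SD, n = 3), which is 4.12-fold and a log2 fold change of 2.04 (SE 0.16). Cldn4 thus had the largest fold change of the 8.

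Sfn (ENSMUSG00000047281) encodes 14-3-3 sigma, an adaptor protein of epithelial cells that holds back the cell cycle after DNA damage and is induced by p53. It had 25.5, 24.5 and 25.4 in room air and 37.1, 39.4 and 45.2 CPM in hyperoxia. The room air libraries were nearly equal, and the groups did not overlap. The means of 25.1 ± 0.561 and 40.6 ± 4.13 CPM differed 1.62-fold (log2 0.69, SE 0.12). Unlike the keratins, Cldn4 and Sfn were highest in hyperoxia replicate 3.

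Lgals3 (ENSMUSG00000050335) encodes galectin-3, a lectin that binds beta-galactosides and is made by epithelial cells and macrophages. Its level was 43.4, 33.6 and 63.8 in room air and 136, 176 and 134 CPM in hyperoxia. Room air replicate 3 and hyperoxia replicate 2 were the highest of their groups. The means were 46.9 ± 15.4 and 148 ± 23.5 CPM, or 3.16-fold (log2 1.66, SE 0.21). Msln (ENSMUSG00000063011) encodes mesothelin, a membrane-anchored surface protein that is abundant on the mesothelium lining the lung. It had 38.6, 39.9 and 43.2 in room air and 116, 165 and 130 CPM in hyperoxia. The room air libraries were close, the hyperoxia libraries were wider apart, and the groups did not overlap. Its means of 40.6 ± 2.36 and 137 ± 25.6 CPM differed 3.38-fold (log2 1.76, SE 0.14).

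Levels of different genes can be set side by side only per length, here as CPM per kilobase of merged exons. In room air, Krt18 stood at 28 ± 5.65, Krt8 at 27.8 ± 7.45, Lgals3 at 25.3 ± 8.31 and Krt19 at 24.4 ± 5.68 CPM per kilobase (SD, n = 3), and their ranges over libraries overlapped. Krt8 was above Lgals3 in every room air library, while the order of Krt18 and Krt8 and that of Lgals3 and Krt19 changed between libraries. Krt7 followed with 18.2 ± 4.68, Sfn with 15.6 ± 0.348, Msln with 13.2 ± 0.769 and Cldn4 with 4.17 ± 0.54 CPM per kilobase. The order of Krt7 and Sfn changed between libraries, whereas Sfn, Msln and Cldn4 were apart in every library. In hyperoxia the order was Lgals3 with 79.9 ± 12.7, Krt18 with 72.2 ± 9.43, Krt19 with 67.6 ± 12.5 and Krt8 with 65.8 ± 7.04 CPM per kilobase, again with overlapping ranges. Lgals3 was above Krt18, and Krt18 above Krt19, in every hyperoxia library, while the order of Krt19 and Krt8 changed. Krt7 had 53.3 ± 10.8, Msln 44.7 ± 8.36, Sfn 25.2 ± 2.56 and Cldn4 17.2 ± 2.37 CPM per kilobase. Krt7 was below Krt8 and above Msln in every hyperoxia library, and Cldn4 was the lowest in both groups. Msln was below Sfn in every room air library and above it in every hyperoxia library. The merged exons of Krt7 span 7.049 kilobases over all its isoforms, which lowers its value here.

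This and the later gene lists were chosen with earlier results of these data known, so their calls are a description. As a background for counts at an unadjusted p below 0.05, edgeR gave 2305 higher and 1993 lower among all 17072 genes tested. DESeq2 called 1524 higher and 1242 lower. Of 16 other listed genes of the transitional state, 14 were tested, 6 were called higher and none lower by edgeR. Their median log2 fold change was 0.69. At an unadjusted p below 0.05, 7 were higher and 0 lower, and DESeq2 called 7 higher and 0 lower. Gdf15, a stress cytokine, rose from 4.01 ± 1.65 to 59.7 ± 18.8 CPM (log2 3.89, SE 0.32, adjusted p = 0.000102). Cdkn1a, the p21 cell-cycle inhibitor and a p53 target, rose from 91.9 ± 9.86 to 735 ± 51.9 CPM (log2 3.0, SE 0.14, adjusted p = 2.8e-06). Nupr1, a stress-response regulator of transcription, rose by 2.02 on the log2 scale (SE 0.24, adjusted p = 0.000726). These 3 genes are not particular to epithelium, and endothelial cells can express them.

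Itgb6, which encodes the epithelial integrin subunit that activates TGF-beta, went from 25 ± 10.2 to 79.6 ± 29.1 CPM, a log2 fold change of 1.67 (adjusted p = 0.00751), which was not called without the filter on low counts (adjusted p = 0.13). Ccn1, a matrix-associated signalling gene, rose by 1.05 on the log2 scale (adjusted p = 0.0163). It was not called without room air replicate 1 (adjusted p = 0.0555) or without hyperoxia replicate 2 and room air replicate 3 together (adjusted p = 0.0678), the libraries with the highest summed pan-epithelial level of their groups. Plaur, the urokinase receptor gene, rose from 102 ± 4.43 to 138 ± 15.8 CPM (log2 0.44, adjusted p = 0.0316). Its call was lost when any 1 library other than room air replicate 3 was left out, with adjusted p from 0.0602 to 0.106. Krt17 and Sprr1a, a stratified-epithelium keratin and a cornified-envelope gene, had too few counts to pass the filter. Krt17 had 10, 6 and 8 counts in room air and 4, 73 and 12 in hyperoxia, and Sprr1a had 0, 2 and 4 against 32, 0 and 43. Sprr1a was called higher with no filter, without hyperoxia replicate 2, where it has 0 counts, and without hyperoxia replicate 2 and room air replicate 3 together.

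Other keratins did not pass the test. Of 50 further keratin genes in the table, 8 had enough counts, edgeR called 0, none had an unadjusted p below 0.05, and DESeq2 and limma-voom each called 0. Their median log2 fold change was 0.22, with a range from -0.395 to 1.46. The most abundant were Krt80, a type II keratin, with 106 ± 20.1 and 126 ± 26 CPM (adjusted p = 0.414), and Krt23, a type I keratin, with 9.22 ± 1.78 and 7.02 ± 1.39 CPM (adjusted p = 0.312). Within the groups, Krt80 was lowest in room air replicate 3 (87.3 CPM) and hyperoxia replicate 2 (95.9 CPM), as were 9 of 10 endothelial markers. Which cells made Krt80 transcripts was not tested. The highest fold change belonged to Krt15, a basal-cell keratin chosen here after its values were seen. It had 0.581, 1.58 and 0.724 in room air and 0.242, 5.81 and 1.88 CPM in hyperoxia, which overlap (adjusted p = 0.314).

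Desmosomes are the junctions to which keratin filaments attach. Of 10 desmosome genes, 8 were tested and 5 were called higher: Perp, Dsp, Pkp3, Pkp2 and Ppl, with a list median of 1.07. Dsp, which encodes the desmoplakin that links desmosomes to keratin, rose from 24.3 ± 5.58 to 65.4 ± 22.3 CPM (log2 1.43, SE 0.23, adjusted p = 0.00313). Perp, a p53-induced desmosomal membrane protein, rose by 1.44 on the log2 scale (SE 0.26, adjusted p = 0.00624), and the plakophilin gene Pkp3 by 1.21 (adjusted p = 0.00477). Jup encodes plakoglobin, which endothelial junctions also use. It stood at 1332.4 ± 262 and 1206.9 ± 184 CPM (adjusted p = 0.679). None of the 8 was called lower, also by DESeq2, and none was lower at an unadjusted p below 0.05.

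Of 7 tested genes for other filaments and linkers, edgeR called 0. One gene was lower at an unadjusted p below 0.05, and DESeq2 called it: Nes, the intermediate filament gene of nestin, with 406 ± 40.7 and 299 ± 32.3 CPM (log2 -0.44, adjusted p = 0.0541), named after its values were seen. Vim, the vimentin filament gene of endothelial and mesenchymal cells, had 2954.8 ± 448 and 2691.6 ± 521 CPM (adjusted p = 0.707).

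The families of the other 3 gene types were then examined. Of 24 further claudins, 14 were tested and 2 were called higher, with a median log2 fold change of 0.32, and none lower. At an unadjusted p below 0.05, 4 were higher and 2 lower, beside 2305 and 1993 of all 17072 genes tested. DESeq2 called 3 claudins higher and 0 lower. Cldn18, the claudin of alveolar epithelium, which is also a type 1 marker, rose from 561 ± 139 to 1324.4 ± 218 CPM (log2 1.24, SE 0.19, adjusted p = 0.00271). Cldn2, a pore-forming claudin, had 0.23 ± 0.0323 and 1.01 ± 0.324 CPM (adjusted p = 0.0458) and lost its call whichever library was left out, with adjusted p from 0.0638 to 0.182.

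The 6 other 14-3-3 genes, which most cells express, had log2 fold changes from -0.405 to -0.09, and edgeR called 0. Ywhah was lower at an unadjusted p below 0.05 and was called by DESeq2 and limma-voom, with 274 ± 31.5 and 207 ± 5.81 CPM (adjusted p = 0.0507 by edgeR). Of 5 further galectins tested, edgeR, DESeq2 and limma-voom called 0, and 0 had an unadjusted p below 0.05. Lgals9 had 192 ± 24.5 and 189 ± 29.4 CPM, and Lgals1 58.4 ± 20 and 63.7 ± 10.2 CPM. Genes for binding partners showed no call either. Lgals3bp, whose product binds galectin-3, had 107 ± 22.9 and 106 ± 14.1 CPM (adjusted p = 0.977). Muc16, whose product binds mesothelin, had 0.669 ± 0.164 and 0.388 ± 0.0835 CPM (adjusted p = 0.461). The 2 had no unadjusted p below 0.05 and no call by DESeq2 or limma-voom.

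**Figure D2:**
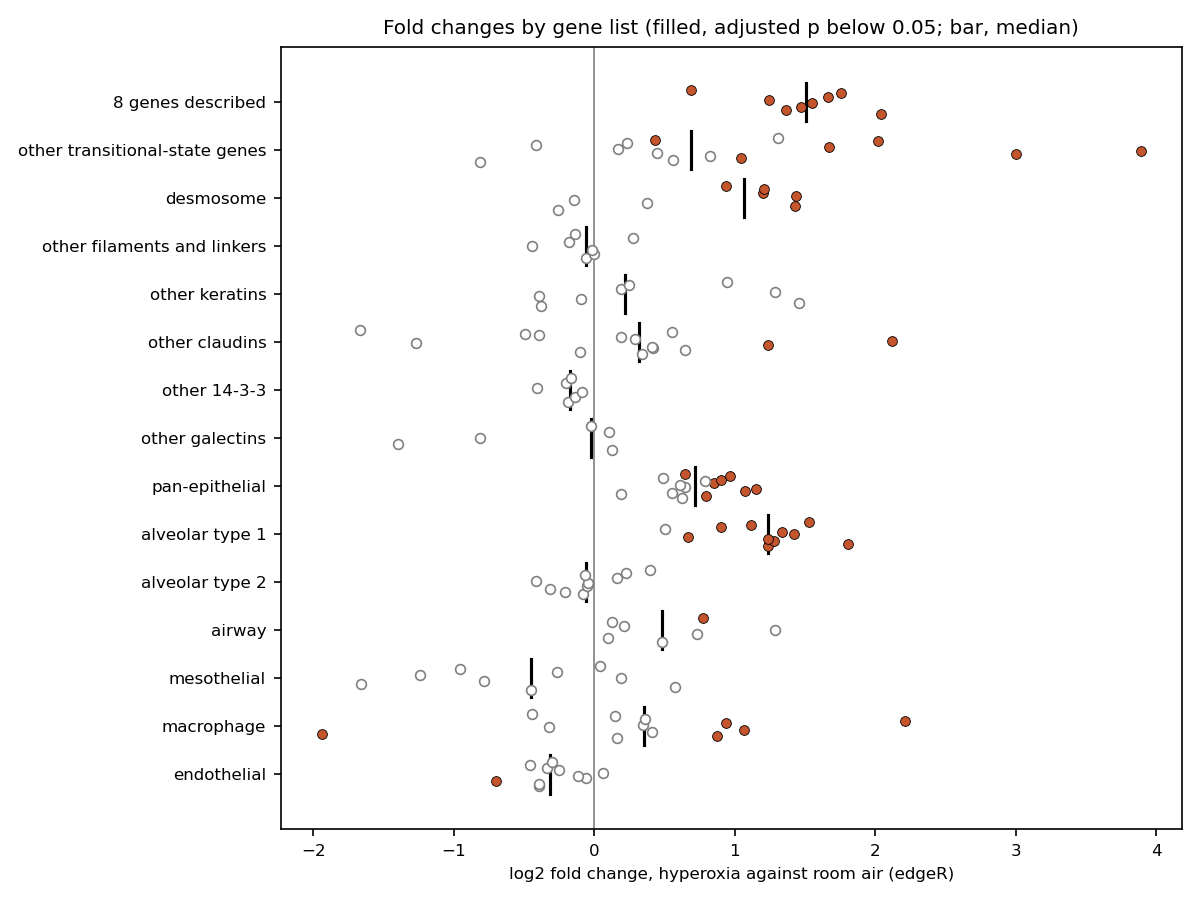
Log2 fold change of every tested gene in 15 lists, hyperoxia against room air. Each point is a gene, filled where its edgeR adjusted p was below 0.05, and the vertical bar is the list median. The 8 genes described and the alveolar type 1 list lie right of 0, with medians of 1.51 and 1.24, while the medians of the alveolar type 2, galectin and 14-3-3 lists are -0.06, -0.02 and -0.175.

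Pan-epithelial and alveolar type 1 markers moved with the 8 genes. Of the 14 pan-epithelial markers, 7 were called higher and none lower, with a median log2 fold change of 0.72 and all 14 above 0. At an unadjusted p below 0.05, 12 were higher and 0 lower, and DESeq2 called 12 higher and 0 lower. Elf3, an epithelial transcription factor, rose by 1.15 on the log2 scale (adjusted p = 0.00854) and Spint1, an inhibitor of epithelial surface proteases, by 0.965 (adjusted p = 0.00299). Crb3, an apical polarity gene, rose by 1.07 (adjusted p = 0.0117), a call that was lost without room air replicate 2 (adjusted p = 0.0561).

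Of the 11 alveolar type 1 markers, 10 were called higher and none lower, also by DESeq2 and at an unadjusted p below 0.05, with a median of 1.24. Their summed level was 2715 to 3910 in room air and 6792 to 8958 CPM in hyperoxia. Akap5, a signalling scaffold, rose from 178 ± 43.7 to 622 ± 146 CPM (adjusted p = 0.000586), Spock2, a matrix proteoglycan, from 302 ± 59.6 to 873 ± 82.2 CPM (adjusted p = 0.000402), and Gprc5a, a surface receptor, from 299 ± 65.5 to 803 ± 150 CPM (adjusted p = 0.00121).

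The 10 alveolar type 2 markers showed no call by edgeR, with a median of -0.06. At an unadjusted p below 0.05, Slc34a2 was higher and Sftpa1 lower, and DESeq2 called 1 lower. Sftpc, a surfactant protein gene, had 10131.6 ± 2677.6 and 9660.4 ± 1125.6 CPM (adjusted p = 0.882), and Sftpb, another, had 2017.2 ± 347 and 2256.4 ± 291 CPM (adjusted p = 0.61). The summed type 2 level was 12891 to 20092 in room air and 14378 to 17465 CPM in hyperoxia, which overlap. Of 10 endothelial markers, 1 was called lower, Egfl7, with 547 ± 86.6 and 337 ± 32.1 CPM (log2 -0.70, adjusted p = 0.0112), which was not called without hyperoxia replicate 3 (adjusted p = 0.0596). The endothelial list had a median log2 fold change of -0.32, with 9 of 10 markers below 0, and Egfl7, Tek and Cldn5 were lower at an unadjusted p below 0.05. Its summed level overlapped between the groups.

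**Figure D3:**
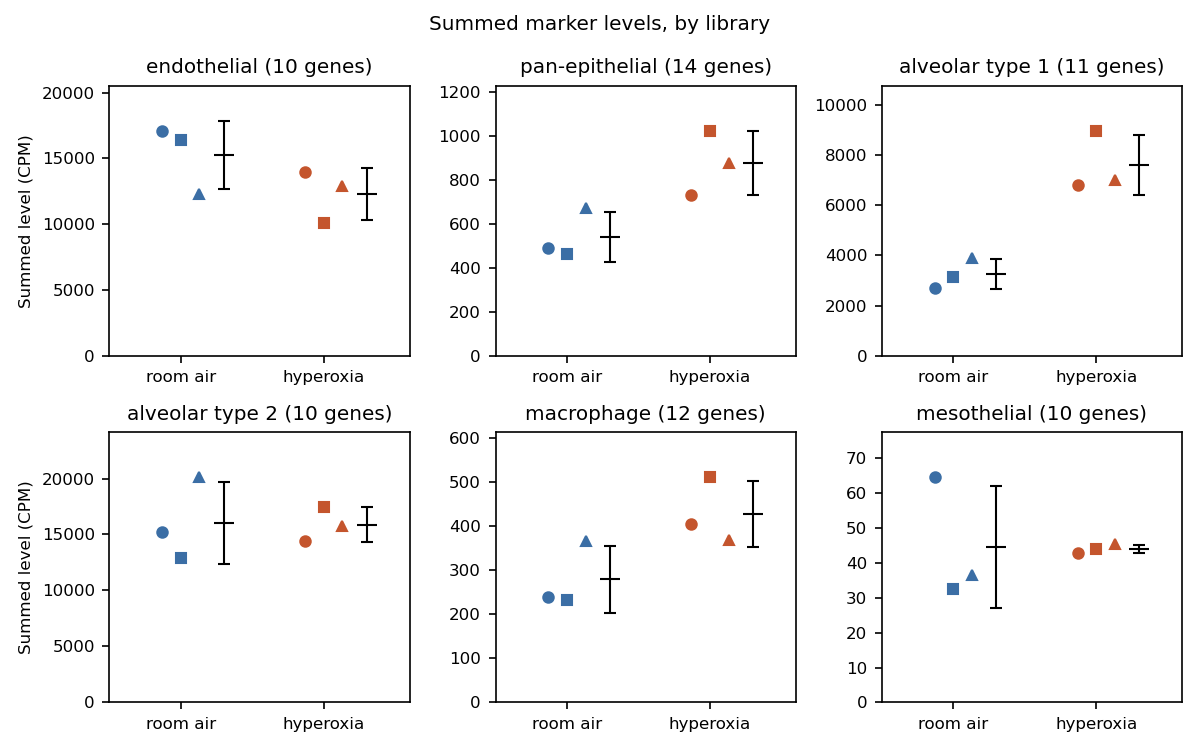
Summed CPM of 6 marker lists by library, on linear axes from 0. Symbols and colours mark replicates and groups, and black bars are the mean ± SD (n = 3). The type 1 sums do not overlap between groups (2715 to 3910 against 6792 to 8958 CPM), whereas the type 2 sums do.

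The order of libraries within a group was similar for several lists. Room air replicate 3 was the highest room air library for 7 of the 8 genes, for 14 of 14 pan-epithelial markers and for 10 of 10 type 2 markers, and the lowest for 9 of 10 endothelial markers. Hyperoxia replicate 2 was the highest hyperoxia library for 6 of the 8 genes, for 13 of 14 pan-epithelial and 11 of 11 type 1 markers, and the lowest for 9 of 10 endothelial markers. Macrophage markers had the same order, with room air replicate 3 the highest for 11 of 12 and hyperoxia replicate 2 for 10 of 12. Summed fibroblast, muscle and pericyte, and airway levels also peaked in these 2 libraries, so the order was not limited to epithelial lists. Some lists departed from it: hyperoxia replicate 2 was the highest for 5 of 10 type 2 markers and the lowest for 2, and room air replicate 1 was the highest for 9 of 9 mesothelial markers. Without both libraries together, log2 fold changes were 1.585 for Krt7, 1.4 for Krt8, 1.42 for Krt18, 1.525 for Krt19, 2.2 for Cldn4, 0.71 for Sfn, 1.80 for Lgals3 and 1.63 for Msln. The 8 genes were selected with this contrast known and this setting was chosen after seeing the data, so these values are a description. In the remaining libraries the summed pan-epithelial level was 490 and 466 in room air and 732 and 879 CPM in hyperoxia.

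Each gene was next given as a log2 ratio to the mean log2 CPM of a marker list in the same library. With the contrast used to select the genes, the differences are a description and carry no p. The share of all genes tested whose ratios lay wholly above is not given here, so counts of such genes have no background. Relative to the 14 pan-epithelial markers, 7 of the 8 genes were higher in every hyperoxia library than in any room air library. The differences between the group means of the log2 ratio were 1.30 for Cldn4, 1.00 for Msln, 0.96 for Lgals3, 0.82 for Krt7, 0.74 for Krt19, 0.64 for Krt18 and 0.53 for Krt8. Sfn was the exception, with log2 ratios of 0.257, 0.225 and -0.241 in room air and 0.166, -0.259 and 0.179 in hyperoxia, which overlap.

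Relative to the 11 type 1 markers, hyperoxia lay wholly above room air for 5 of the 8 genes, with log2 differences of 0.84 for Cldn4, 0.545 for Msln, 0.505 for Lgals3, 0.36 for Krt7 and 0.28 for Krt19. Groups overlapped for Krt8, Krt18 and Sfn. The log2 ratio of Krt8 to type 1 markers was -1.725, -2.062 and -1.747 in room air and -1.768, -1.918 and -1.627 in hyperoxia. The log2 differences were 0.07 for Krt8, 0.18 for Krt18 and -0.51 for Sfn. Relative to the 10 type 2 markers, all 8 were higher in every hyperoxia library, by 0.71 to 2.06. The part of epithelial RNA content in the levels of the 8 genes was measured only through these ratios, which depend on the markers used.

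**Figure D4:**
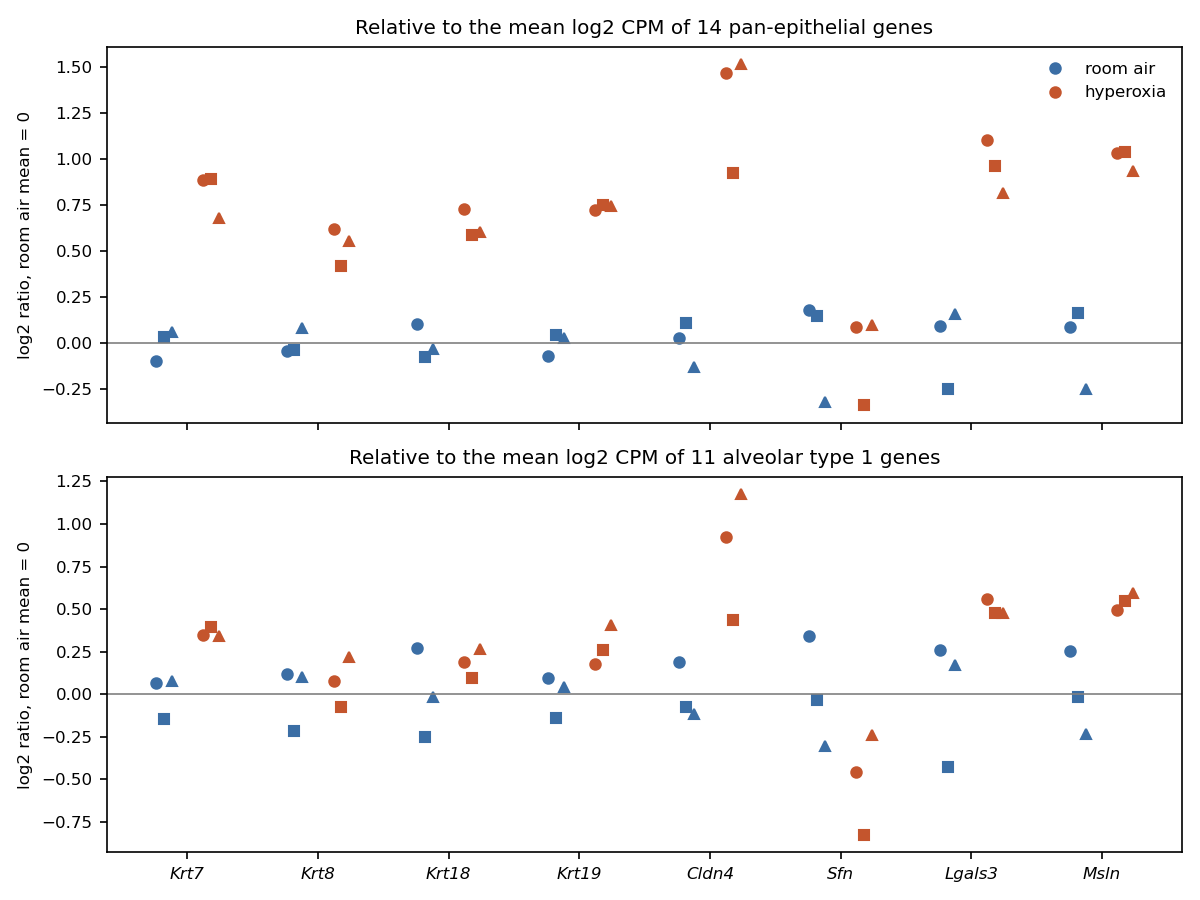
Log2 ratio of each gene to 14 pan-epithelial markers (top) and to 11 alveolar type 1 markers (bottom), by library, with the room air mean set to 0. Blue points are room air and orange points hyperoxia, with replicates 1 to 3 as circles, squares and triangles. Sfn overlaps between groups in both panels, and Krt8 and Krt18 overlap in the bottom panel only.

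Lgals3 is also a macrophage gene, and the summed level of 12 macrophage markers was 232 to 367 in room air and 368 to 511 CPM in hyperoxia, nearly touching. Of the 12, 4 were called higher, Marco, Ctss, Itgax and Cd68, 1 was called lower, Chil3, and 7 were not called, with a median log2 fold change of 0.35. The scavenger receptor gene Marco had 7.47 ± 3.07 and 34.7 ± 19.8 CPM (adjusted p = 0.00632), which was not called without the filter on low counts (adjusted p = 0.132). Chil3, an alveolar macrophage gene, fell from 15.2 ± 8.04 to 3.96 ± 1.42 CPM (log2 -1.94, adjusted p = 0.00806), and was not called without hyperoxia replicate 2 (adjusted p = 0.0529). The calls of Ctss, Itgax and Cd68 were each lost when either room air replicate 1 or 2 or hyperoxia replicate 2 was left out, with adjusted p from 0.0539 to 0.113. Ctss and Cd68 also lost theirs without hyperoxia replicate 1 (adjusted p = 0.0582 and 0.0621). The log2 ratio of Lgals3 to the 12 markers was 1.906, 1.426 and 1.616 in room air and 2.957, 3.078 and 2.953 in hyperoxia, a difference of 1.35 with no overlap. Those 12 markers moved in both directions, and the log2 fold change of Marco, 2.215, was above that of Lgals3, 1.66. Relative to a core of 4 macrophage markers the difference of Lgals3 was 1.16, again with no overlap. The share of the Lgals3 level that came from macrophages was not tested.

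Msln was set against 9 other mesothelial markers. Of these, edgeR called 0, with a median log2 fold change of -0.45. At an unadjusted p below 0.05, 1 was higher and 2 lower, DESeq2 called 1 higher and 2 lower, and limma-voom called 1 higher. Their summed level was 32.4 to 64.5 in room air and 42.9 to 45.3 CPM in hyperoxia, and Calb2, a defining mesothelial gene, had 0 counts in every library. Gpm6a, a membrane glycoprotein gene, had 19.5 ± 5.37 and 29.1 ± 1.37 CPM (adjusted p = 0.0649). Upk3b, a uroplakin gene, had 23, 7.3 and 10.5 in room air and 5.89, 7.59 and 7.59 CPM in hyperoxia (adjusted p = 0.117). The log2 ratio of Msln to the list was 3.651, 4.695 and 4.532 in room air and 6.291, 7.154 and 6.438 in hyperoxia, a difference of 2.335. Several of the 9 markers had few counts, such as Rspo1 with 6 and Lrrn4 with 8 in hyperoxia replicate 2. The ratio thus rests in part on low counts, and its difference was above the log2 fold change of Msln, 1.76. The level of Msln was higher in hyperoxia while the summed mesothelial markers of the groups overlapped.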

How the data were processed

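The authors deposited raw counts per gene for 56941 Ensembl IDs in 6 libraries. Per the submitters' processing notes, the build was GRCm39 and the tools included featureCounts, Subread 2.0.6, HISAT2 2.2.1 and DESeq2, whose order and role they do not state. Not given in the sources used here are the annotation release, the strand setting and how multimapping reads were handled, so counts of overlapping or near-identical genes are uncertain. Per the labels' protocols, lungs were enzyme-digested and CD31-positive cells taken on a magnetic column.

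Symbols were matched by ID for 51948 genes. Genes with at least 10 counts in enough libraries and 15 in all (filterByExpr) were kept, 17072 in number, scaled by TMM and tested with the robust quasi-likelihood test of edgeR 4.0.16 in R 4.3.3 on all 6 libraries with group alone as a term. P-values were Benjamini-Hochberg adjusted over all genes tested, with a threshold of 0.05. The common biological coefficient of variation was 0.229. limma 3.58.1 (voom) and DESeq2 1.42.0 served as alternatives, with other scalings, filters and thresholds, the replicate number as a block, and each library left out. The test was tested on simulated data. Exon lengths and overlaps came from GENCODE M21 (GRCm38), and promoters from RefSeq (GRCm38.p6). The 8 genes, the lists and the tests were chosen with earlier results of these data known. Beside the 8 genes, the text names up to 3 called genes with a mean of at least 1 CPM per list by size of change, or the 2 most abundant where none was called, and others as said there. Same-numbered libraries of the groups are not treated as pairs, although the deviations of 3 libraries a group cannot exclude pairing.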

Additional observations from a re-analysis of the deposited data

How the results depend on the processing

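The 8 genes were selected with this contrast known, so their calls over the 17 alternatives support nothing further and only the range of values is given. Their log2 fold changes ran from 1.37 to 1.77 for Krt7, 1.13 to 1.485 for Krt8, 1.25 to 1.535 for Krt18, 1.33 to 1.68 for Krt19, 1.91 to 2.2 for Cldn4, 0.595 to 0.75 for Sfn, 1.47 to 1.945 for Lgals3 and 1.6 to 1.86 for Msln. With the replicate number as a block, 881 genes were called higher and 514 lower over the whole table. Same-numbered libraries had deviation correlations of 0.112, -0.039 and -0.09, and room air replicate 3 with hyperoxia replicate 2 had 0.147. With 3 libraries a group these values cannot exclude pairing, which was not assumed. Over the whole table, 1156 genes were higher and 753 lower. At a threshold of 0.01 these were 556 and 233, and at 0.1 they were 1619 and 1235. DESeq2 called 1524 higher and 1242 lower, and with no filter 1591 were higher and 1243 lower. With 1 library left out, 681 to 1095 were higher and 376 to 749 lower.

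In the claudin, 14-3-3 and galectin families, the 2 genes called higher became 1 with the filter at 1 CPM, with limma-voom and at a threshold of 0.01, 3 with no filter, DESeq2 and the threshold of 0.1, and 1 to 2 with 1 library left out. Other transitional genes called higher went from 6 to 4 at a threshold of 0.01, 5 to 6 with 1 library left out, 5 with the replicate block, and 7 with no filter, DESeq2 and the threshold of 0.1. Among the claudins, 14-3-3 genes and galectins, 0 were called lower, and 0 to 1 with 1 library left out. This count became 1 with DESeq2, its size factors, upper-quartile scaling, library size only and limma-voom. It was also 1 with no filter, the filter at 1 CPM and the threshold of 0.1. Desmosome and linker genes called lower went from 0 to 1 under those settings other than DESeq2 size factors, with 0 to 1 with 1 library left out and 1 without hyperoxia replicate 2 and room air replicate 3 together, a setting chosen after seeing the data. Other keratins called higher went from 0 to 1 with no filter. The cause was not tested.

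Signs turned for values near 0. With 1 library left out, log2 fold changes ran from -0.052 to 0.866 for Areg, -0.26 to 0.012 for Vim, -0.123 to 0.358 for Lgals1, -0.132 to 0.093 for Lgals9, -0.124 to 0.169 for Lgals3bp and -0.237 to 0.146 for Sftpc. Lgals3bp was at 0.002 with limma-voom and 0.002 with the replicate block. Without hyperoxia replicate 2 and room air replicate 3 together, Krt15 was at -0.042, Krt5 at -0.014 and Sftpc at 0.042. The keratin balance was -0.048 on raw counts and -0.007 to 0.078 with 1 library left out, and the ratio of Sfn to epithelial markers -0.213 to 0.092.

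With 3 libraries a group, an exact permutation test cannot go below 0.1. The lowest raw count among the 8 genes was 280, while Krt15, Krt17, Sprr1a, Cldn2 and several mesothelial markers rest on few counts. The promoter windows are from another build than the counts and cover 6 of the 8 genes.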

Other observations

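Not every listed gene of the transitional state was called. Areg, which encodes the growth factor amphiregulin, had 4.06 ± 1 in room air and 5.98 ± 3.67 CPM in hyperoxia (SD, n = 3, edgeR adjusted p = 0.421). Hbegf, which encodes another ligand of the EGF receptor, had 40.5 ± 5.1 and 45.5 ± 3.64 CPM (adjusted p = 0.445). Neither was called. Of the 14 tested, 12 had a log2 fold change above 0. Those below 0 were Mdk (-0.413, adjusted p = 0.388) and AW112010 (-0.811, adjusted p = 0.416), and neither was called. In AW112010 every hyperoxia library lay below every room air library. All of these genes were named after their values were seen. Among the tight-junction genes in the pan-epithelial list, Cldn3 had 84.9 ± 13.8 and 96.8 ± 12.5 CPM (adjusted p = 0.445) and Cldn7 had 23.6 ± 5.06 and 34.6 ± 6.27 CPM (adjusted p = 0.0774). These 2 claudins had smaller fold changes, 0.19 and 0.55 on the log2 scale, than Cldn4 and Cldn18. The difference between them and Cldn4 was not tested.

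The basal-cell keratin Krt5 had 2, 22 and 6 counts in room air and 0, 50 and 24 in hyperoxia, with no count in hyperoxia replicate 1, so its level followed single libraries and not the groups. The remaining marker lists gave few calls. Of 7 tested airway markers, 1 was called higher, Tppp3, a gene of ciliated cells, from 90.8 ± 15.4 to 155 ± 20.4 CPM (adjusted p = 0.00649). The airway list had a summed level of 266 to 475 in room air and 341 to 585 CPM in hyperoxia. Of 3 tested erythroid markers edgeR called 0, although 2 haemoglobin genes, Hba-a1 and Hbb-bs, were lower at an unadjusted p below 0.05 and DESeq2 and limma-voom each called 2 lower. None of the fibroblast, muscle and pericyte or other leukocyte markers was called by edgeR, with 1 fibroblast marker, Pdgfra, lower at an unadjusted p below 0.05 and by DESeq2.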
